A study of Mus musculus with 64 samples.

Results

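The 3-beta-hydroxysteroid dehydrogenases of the mouse are enzymes of steroid metabolism encoded by the Hsd3b genes. The 5 genes described here, Hsd3b2, Hsd3b3, Hsd3b4, Hsd3b5 and Hsd3b7, were taken by name from the 53008 gene names of a liver count table. They were chosen because counts of Hsd3b5 and Hsd3b4 were lost in 1 group of mice, HuMgat2 mice on a high-fat diet. In every comparison that holds this group, the values of the 5 genes are therefore a description without a test. Gene counts came from RNA sequencing of liver from wild-type (WT) mice and from HuMgat2 mice, which express human MOGAT2, after 16 weeks on a high-fat diet (HFD) or on chow. The groups were HuMgat2 HFD (libraries 9 to 12), HuMgat2 chow (13 to 16), WT HFD (1 to 4) and WT chow (5 to 8), with 4 libraries each. WT here means mice with the mouse Mogat2 gene. MOGAT2 (also called MGAT2) makes diacylglycerol from monoacylglycerol. The labels give no age, sex, strain background or promoter for these mice, and do not say whether the libraries of a group came from separate animals, so p-values measure only the spread between libraries.

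Enzymes of this family oxidise the 3-hydroxyl group of steroids and move a ring double bond, a step on the way to progesterone, androgens, glucocorticoids and mineralocorticoids. In mice the genes lie side by side on chromosome 3 and divide the work between tissues. Hsd3b1 serves the adrenal gland and gonads, Hsd3b6 is known from adrenal gland and testis, and Hsd3b2 and Hsd3b3 are known from kidney and liver. The mouse enzymes Hsd3b4 and Hsd3b5 mainly reduce 3-ketosteroids, which inactivates active steroids. Hsd3b5 is a classical marker of male mouse liver. Hsd3b7 lies on chromosome 7 and has another substrate, the sterol intermediates of bile acid synthesis.

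The libraries held 12.4 M to 25.8 M counts. Levels are TMM-scaled CPM (read counts scaled to a common library size), and group levels are means ± SD (n = 4). WT HFD library 4 stood apart: it had the smallest total, and Alb, the albumin gene, held 0.85% of its counts, while the share elsewhere was 3.259% to 6.018%. Differences of the 5 genes that rest on it are also given without it. The 9 hepatocyte markers in the table were counted in every group and summed to 47700 to 93200 CPM. Libraries of all groups carried the Y-linked gene Ddx3y at 64.4 to 95.4 CPM and at most 1.51 CPM of Xist, the RNA of the inactive X chromosome. The adrenal genes Cyp11b1, Cyp11b2, Nr5a1 and Mc2r had 0 counts in every library, and Cyp11a1 had at most 2. The rest of the adrenal and gonad list was present. Fdx1 held 30.3 to 70.35 CPM, Fdxr 5.88 to 10.57, Star 2.06 to 2.96 and Cyp17a1 2.46 to 33.8. Cyp17a1 averaged 27.3 CPM in HuMgat2 HFD and 10.6 CPM in HuMgat2 chow. Cyp21a1 held 0 to 1.99 CPM and was 4.71-fold higher in WT HFD than in WT chow (adjusted p = 0.0379, edgeR). It rested on 2, 21, 2 and 0 counts in WT chow libraries 5 to 8. Fdx1 was also called there (1.35-fold higher, adjusted p = 0.0436, edgeR). The number of genes of this list called higher in WT HFD, 2, changed in 20 of 25 alternative fits, down to 0. Kidney tubule markers summed to at most 3.61 CPM.

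The table places Hsd3b4 (ENSMUSG00000095143, GRCm39 chromosome 3, 98406387 to 98417830), Hsd3b5 (ENSMUSG00000038092, 98525950 to 98537568), Hsd3b2 (ENSMUSG00000063730, 98616571 to 98631859) and Hsd3b3 (ENSMUSG00000062410, 98648839 to 98670443) in this order on the minus strand. Hsd3b7 (ENSMUSG00000042289, chromosome 7, 127399776 to 127402974) is on the plus strand. Promoters are shown for the gene that lost most counts, for its partner in that loss, and for Hsd3b3, which kept most of its counts. Each stretch runs 5′ to 3′ over 300 bases on the minus strand of GRCm38.p6 (RefSeq), ends 50 bases past the annotated start, and has its motif matches in capitals.
Hsd3b5, chr3:98645485-98645784: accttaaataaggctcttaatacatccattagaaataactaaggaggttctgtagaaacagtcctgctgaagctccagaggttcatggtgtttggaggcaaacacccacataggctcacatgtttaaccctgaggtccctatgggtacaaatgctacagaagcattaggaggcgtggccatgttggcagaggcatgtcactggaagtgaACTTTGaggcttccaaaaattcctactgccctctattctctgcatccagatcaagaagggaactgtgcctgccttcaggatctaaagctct
Hsd3b4, chr3:98510518-98510817: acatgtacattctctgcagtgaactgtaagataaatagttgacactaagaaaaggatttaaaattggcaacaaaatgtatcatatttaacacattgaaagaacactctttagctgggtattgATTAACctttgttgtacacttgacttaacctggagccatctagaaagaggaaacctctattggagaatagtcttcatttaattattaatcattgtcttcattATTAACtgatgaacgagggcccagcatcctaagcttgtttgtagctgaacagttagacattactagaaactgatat
Hsd3b3, chr3:98763079-98763378: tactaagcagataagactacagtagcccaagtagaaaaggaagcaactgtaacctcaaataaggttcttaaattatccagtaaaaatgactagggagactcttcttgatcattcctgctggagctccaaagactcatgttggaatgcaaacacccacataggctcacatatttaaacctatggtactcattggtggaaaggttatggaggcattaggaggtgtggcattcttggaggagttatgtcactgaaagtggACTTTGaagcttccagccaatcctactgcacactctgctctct
All 5 genes matched the RefSeq table, which lists 2 start sites each for Hsd3b4 and Hsd3b3 (the first is shown). The start of Hsd3b5 in that table lies 15.3 kb upstream of the start of the gene in the GENCODE annotation of the same build, so this window is the promoter of 1 of the annotated starts only.

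Both strands were searched for 5 motifs: the STAT5 site TTCNNNGAA, the TATA box TATAAA, the HNF1 motif GTTAAT, the HNF4 core CAAAGT and the nuclear receptor motif AGGTCA. No motif overlapped another in these windows. Hsd3b4 held 2 HNF1 motifs, read as ATTAAC, a motif present in 7.10% of all 32851 promoters in the table. Hsd3b5 and Hsd3b3 each held 1 HNF4 core, read as ACTTTG, which 14.4% of promoters hold. TTCNNNGAA, present in 8.30% of promoters, was found in the window of Hsd3b7 and in none of those shown. The promoters of Hsd3b5 and Hsd3b3 shared a run of 24 bases, gcaaacacccacataggctcacat, and the longest run shared by Hsd3b5 and Hsd3b4 was 10 bases. The longest run that Hsd3b2 shared was 19 bases with Hsd3b5 and 16 bases with Hsd3b3. In coding sequence, Hsd3b4 and Hsd3b5 were 95.2% identical over 1122 bases, and Hsd3b2 and Hsd3b3 were 95.1% identical. Between these pairs the identity was 81.9% to 82.6%. Hsd3b7 was 70.6% to 71.6% identical to the other 4 over the 978 to 988 bases that aligned, out of its 1110. All these percentages leave out bases that did not align.

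Hsd3b5 was almost absent from HuMgat2 livers on HFD and abundant in the other groups. Its counts were 10, 12, 5 and 5 in the HuMgat2 HFD libraries 9 to 12, which is 0.407, 0.531, 0.213 and 0.224 CPM. HuMgat2 chow libraries 13 to 16 held 174.7, 50.2, 157.1 and 195.2 CPM. All HuMgat2 HFD libraries lay far below every other library, and library 14 was the lowest on chow. WT HFD libraries 1 to 4 held 138.2, 135.4, 101.3 and 6.59 CPM, and WT chow libraries 5 to 8 held 131.5, 166.3, 140.9 and 105.7 CPM. Only library 4, with 83 counts, was low among the WT livers. The mean was 0.344 ± 0.153 CPM in HuMgat2 HFD and 144.3 ± 64.6 CPM in HuMgat2 chow, a fitted log2 difference of -8.69 ± 0.86 (SE). The mean of WT HFD was 95.4 ± 61.5 CPM, and the fitted level in HuMgat2 HFD was 273-fold lower, or 357-fold lower without library 4. In bulk liver, fewer cells that express a gene and less RNA per cell cannot be told apart.

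**Figure D1:**
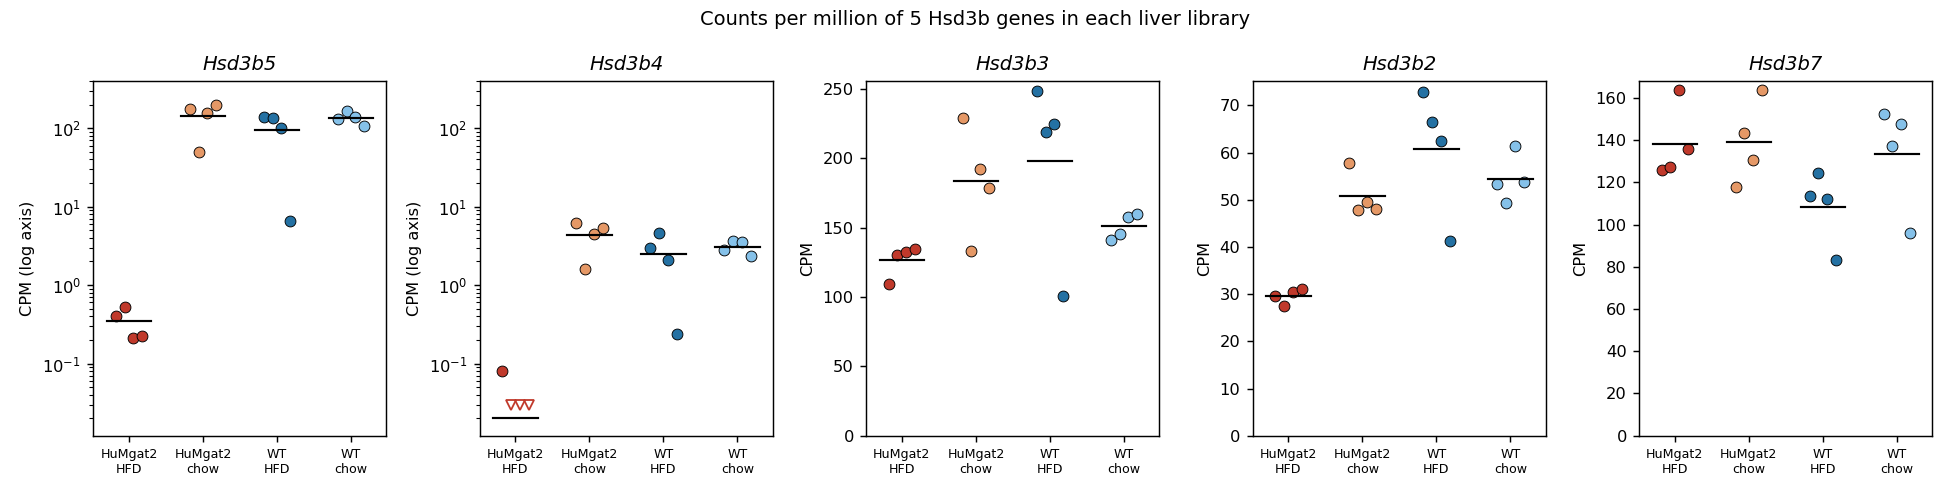
Levels in TMM-scaled CPM of the 5 Hsd3b genes; each point is 1 library, bars are means of 4, open triangles are libraries with 0 counts, and the axes of Hsd3b5 and Hsd3b4 are logarithmic. HuMgat2 HFD lies below all other libraries for Hsd3b5 and Hsd3b4, and WT HFD library 4 is the lowest WT HFD point for every gene.

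Hsd3b4 showed the same pattern at a level too low to measure once reduced. Its counts were 2, 0, 0 and 0 in HuMgat2 HFD libraries 9 to 12 and 97, 42, 83 and 113 in HuMgat2 chow libraries 13 to 16. WT HFD libraries 1 to 4 held 61, 111, 51 and 3 counts, and WT chow libraries 5 to 8 held 59, 79, 79 and 47. The HuMgat2 HFD libraries lay below all others, and library 4 was again the low WT library. Over the summed counts, 2 in HuMgat2 HFD and 335 in HuMgat2 chow, the level was 190.0-fold lower, with an exact 95% counting interval of 52.3 to 1580. Against the 226 counts of WT HFD it was 129-fold lower (35.2 to 1070), and 150.0-fold lower (41.0 to 1250) without library 4. These intervals cover counting error only.

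Neighbouring copies limit what the Hsd3b4 counts can say. Gm10681, also on chromosome 3 (98459858 to 98496123), had counts equal to those of Hsd3b4 in 14 of 16 libraries and within 1 in the others. All 1563 words of 75 bases in the Hsd3b4 transcripts (GRCm38 annotation) also occur in Gm10681, so the counts of the 2 names are not independent and cannot be assigned to either. Gm4450 (98352991 to 98364442), whose coding sequence is 99.6% identical to that of Hsd3b4, held 2 counts in all HuMgat2 HFD libraries together and 97 in the HuMgat2 chow libraries. Its summed level was 55.1-fold lower (14.9 to 462). Of the 75-base words of Hsd3b5, 11.7% occur in another gene, and all 173 of these occur in Gm10681. Outside HuMgat2 HFD, the CPM of Hsd3b5 was 27.7 to 49 times that of Hsd3b4 in each library. Whether reads from Hsd3b5 were counted under Hsd3b4 or Gm10681 was not tested, so the loss of Hsd3b4 is not shown to be separate from that of Hsd3b5.

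Hsd3b2 and Hsd3b3, the dehydrogenases of liver and kidney, were lower in HuMgat2 HFD by far less. Hsd3b2 held 29.7, 27.4, 30.4 and 31.2 CPM in HuMgat2 HFD libraries 9 to 12, against 57.9, 47.8, 49.5 and 48.0 CPM in HuMgat2 chow libraries 13 to 16. These groups did not overlap, and the fitted log2 difference was -0.78 ± 0.13 (SE). WT HFD libraries 1 to 4 held 72.9, 66.5, 62.5 and 41.2 CPM, a log2 difference of -1.04 ± 0.14 for HuMgat2 HFD (-1.18 without library 4), again without overlap. WT chow averaged 54.5 ± 4.98 CPM. Hsd3b3 held 109.2, 130.4, 132.7 and 134.3 CPM in HuMgat2 HFD libraries, against 229, 133.1, 192.3 and 178.6 CPM in HuMgat2 chow libraries. Only library 14 of the chow group reached into the range of the HFD group, and the log2 difference was -0.53 ± 0.21. Against WT HFD, with 248.2, 218.5, 224.6 and 100.8 CPM, it was -0.65 ± 0.21, and -0.86 without library 4, the only WT HFD library below the HuMgat2 HFD range. The size of these differences depended on the scaling. As log2 ratios of mean TPM (counts per exon length, scaled to a common sum), HuMgat2 HFD against HuMgat2 chow gave -0.44 for Hsd3b2 and -0.17 for Hsd3b3. Against all 4 WT HFD libraries these ratios were -0.60 and -0.21.

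Hsd3b7, the bile acid enzyme, did not share the loss. It held 125.9, 127.1, 163.7 and 135.9 CPM in HuMgat2 HFD libraries and 117.6, 143.5, 130.7 and 163.9 CPM in HuMgat2 chow libraries. The groups overlapped, with a log2 difference of -0.01 ± 0.15 that was 0.23 with library totals in place of TMM. WT HFD averaged 108.3 ± 17.7 CPM, below all HuMgat2 HFD libraries (log2 0.35 ± 0.15, and 0.24 without library 4), and WT chow averaged 133.3 ± 25.5 CPM. Of the 5 genes, 3 did not overlap between HuMgat2 HFD and HuMgat2 chow, and 4 did not overlap between HuMgat2 HFD and WT HFD. Among all 17318 genes tested, 21.0% and 21.2% did not overlap in these comparisons. Since the genes were picked on HuMgat2 HFD, nothing is read from these shares.

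**Figure D2:**
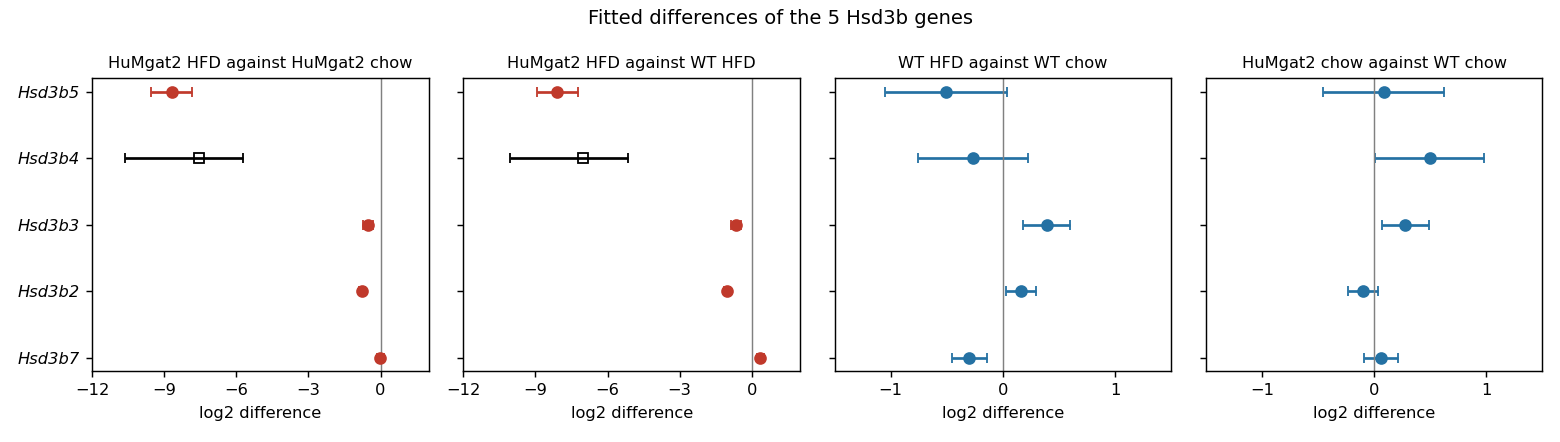
Fitted log2 differences (edgeR) with SE for the 5 genes in 4 comparisons; open squares are ratios of summed counts of Hsd3b4 with exact 95% intervals, and the left and right panels have different scales. Hsd3b5 and Hsd3b4 lie far below the other genes in both comparisons with HuMgat2 HFD, and all 5 genes lie within 1 of 0 in the others.

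Compared per exon length (RPKM, CPM per kb of exon), Hsd3b3 had the highest mean level of the 5 genes in all 4 groups. In HuMgat2 HFD the order was Hsd3b3 (78.7 ± 7.3 RPKM), Hsd3b7 (49.9 ± 6.36), Hsd3b2 (8.03 ± 0.435), Hsd3b5 (0.222 ± 0.0991) and Hsd3b4 (0.0124 ± 0.0249), with no overlap between neighbours. In HuMgat2 chow Hsd3b5 came second at 93.2 ± 41.7 RPKM, behind Hsd3b3 at 113.8 ± 24.6 and ahead of Hsd3b7 at 50.2 ± 7.12. Its range overlapped both of these neighbours. In WT HFD Hsd3b5 had 61.6 ± 39.7 RPKM, Hsd3b3 123 ± 41 and Hsd3b7 39.1 ± 6.39, and the ranges overlapped in the same way. In WT chow Hsd3b5, at 87.9 ± 16.2 RPKM, overlapped Hsd3b3 at 93.8 ± 5.57 and lay above Hsd3b7 at 48.2 ± 9.22. Hsd3b2 at 13.8 to 16.5 RPKM and Hsd3b4 at 1.51 to 2.69 RPKM had the lowest means in these 3 groups.

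The chromosome 3 genes with Hsd3b names, Hsd3b6 and Hsd3b1 included, summed to 88.0 ± 7.58 RPKM in HuMgat2 HFD, against 225 ± 65.1 RPKM in HuMgat2 chow. They summed to 203.9 ± 84.9 RPKM in WT HFD and 199.4 ± 14.6 RPKM in WT chow. The copies Gm10681 and Gm4450 were left out of this sum. Hsd3b5 made up 0.257 ± 0.122% of this sum in HuMgat2 HFD and 39.4 ± 10.4% in HuMgat2 chow. It made up 25.9 ± 13.9% in WT HFD, where library 4 held 5.38%, and 43.8 ± 5.33% in WT chow. The WT HFD sums were 266, 246 and 224 RPKM in libraries 1 to 3 and 79.1 RPKM in library 4, which lay inside the HuMgat2 HFD range of 76.8 to 93.2 RPKM. The Hsd3b5 shares in libraries 1 to 3 were 33.5%, 35.5% and 29.1%. Hsd3b3 took 89.4 ± 0.73% of the sum in HuMgat2 HFD and 52.1 ± 8.31% in HuMgat2 chow.

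**Figure D3:**
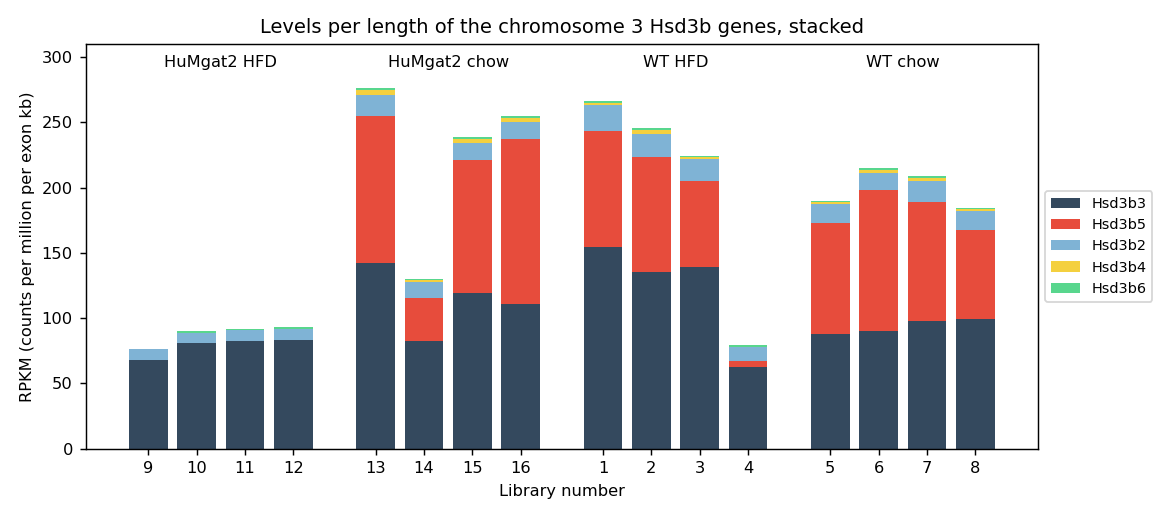
Levels per exon length (RPKM) of the chromosome 3 Hsd3b genes, stacked for each library, with library numbers below; Hsd3b1 is left out at no more than 1 count per library. The Hsd3b5 share is missing in HuMgat2 HFD, and WT HFD library 4 has the smallest sum of the WT libraries, 79.1 RPKM.

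Comparisons without HuMgat2 HFD were tested. The diet question in WT mice gave no call: 0 of 5 genes passed an adjusted p of 0.05 in edgeR's quasi-likelihood test (adjusted p from 0.209 to 0.775), against 15.1% of all genes. The ranges of the groups overlapped for every one of the 5, where they did not overlap for 18.2% of all genes. At an unadjusted p under 0.05 the counts were 0 in edgeR, 1 in DESeq2 and 3 in limma voom with quality weights. Hsd3b5 had 95.4 ± 61.5 CPM in WT HFD and 136.1 ± 25.0 CPM in WT chow (log2 -0.51 ± 0.54 SE). Hsd3b3 had 198 ± 66.1 CPM in WT HFD and 151 ± 8.96 CPM in WT chow (log2 0.39 ± 0.21). These values rest on library 4. Without it Hsd3b3 averaged 230.4 ± 15.7 CPM in 3 WT HFD libraries and was called (1.53-fold higher, log2 0.61 ± 0.14, adjusted p = 0.00585, edgeR), higher in 3 of 3 libraries. Hsd3b2 was also called without it (1.23-fold higher, adjusted p = 0.0359, edgeR), which makes 2 of 5 genes against 14.7% of all genes in that fit. The 4-library difference of Hsd3b2 was log2 0.16 ± 0.13, and -0.19 as a ratio of TPM. That of Hsd3b3, log2 0.39, was 0.055 as a ratio of TPM. Ratios of TPM without library 4 were not computed. Without library 4 Hsd3b5 had a log2 difference of -0.12 ± 0.30.

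The genotype question on chow gave no call either. In HuMgat2 chow against WT chow 0 of 5 genes passed in edgeR (adjusted p from 0.689 to 0.98), against 0.508% of all genes (0.266% higher and 0.243% lower), and 0 had an unadjusted p under 0.05 in edgeR, DESeq2 or limma voom. The ranges overlapped for all 5, where 6.62% of all genes did not overlap. Hsd3b5 averaged 144.3 ± 64.6 CPM in HuMgat2 chow and 136.1 ± 25.0 CPM in WT chow (log2 0.08 ± 0.54). Hsd3b4 averaged 4.40 ± 2.01 CPM in HuMgat2 chow and 3.09 ± 0.643 CPM in WT chow (log2 0.49 ± 0.49). The SE of the low or variable genes leaves room for differences of that size, and a missed threshold does not show that the groups were equal. Whether the diet effect on these genes differs between genotypes was not tested, since that contrast holds HuMgat2 HFD.

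Genes around the chromosome 3 members did not share a single direction. Within 250 kb lie 23 other genes, of which 8 were tested and 12 had at most 10 counts in all libraries together. Hao2, a peroxisomal hydroxyacid oxidase known to be higher in female liver, rose: it held 9.65, 3.36, 8.67 and 6.90 CPM in HuMgat2 HFD libraries and 0.904, 0.418, 0.698 and 0.14 CPM in HuMgat2 chow libraries (13.7-fold, adjusted p = 8.66e-05, edgeR). Hsd3b6 averaged 1.86 ± 0.552 CPM in HuMgat2 HFD and 2.84 ± 0.752 CPM in HuMgat2 chow and was not called (adjusted p = 0.172, edgeR). Hsd3b1 had at most 1 count per library. Zfp697, on the opposite strand, shares 99 exon bases with Hsd3b2 and 230 with Hsd3b3 and held 81 to 425 counts per library. The RNA 9430064I24Rik covers 1729 of the 2769 exon bases of Hsd3b7 and held 8 to 40 counts. The counting command names no strand option, nor one to count reads that overlap several genes, so reads in these overlaps can be left out of both genes. The level per length of Hsd3b7 divides by all its exon bases, and the effect of this overlap on its rank was not tested. In the GRCm38 annotation 46.1% of the 75-base words of Hsd3b7 also occur in another gene name, Gm49388.

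Profiles over the 16 libraries most like that of Hsd3b5 were named by the smallest root mean square difference of centred log2 CPM. The nearest was Slco1a1, an organic anion and steroid conjugate transporter of male liver, at 1.42 log2 units, followed by Hsd3b4 and Gm10681 at 1.45, Adgrf1 at 1.56 and Gm3734 at 1.64. Slco1a1 held 21.0 CPM in HuMgat2 HFD and 527 CPM in HuMgat2 chow, and 399 CPM in WT HFD and 586 CPM in WT chow. Adgrf1 held 0.0751 CPM in HuMgat2 HFD and 12.3 CPM in HuMgat2 chow. Besides its copy Gm10681, the profile of Hsd3b4 was nearest to Gm3734 (0.54), Slco1a1 (0.64), Cyp2c53-ps (0.86) and Cdh1, the epithelial cadherin gene (0.91). These distances are descriptions over the same 16 libraries.

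Lists of related genes, without the 5 members, were counted in the same fit. Of 30 male-biased liver genes, 20 fell and 0 rose in HuMgat2 HFD against HuMgat2 chow, where 6.40% of all genes fell and 7.56% rose, and the median log2 difference was -1.58 against -0.01 for all genes. Slco1a1 fell 25.1-fold, the epidermal growth factor receptor gene Egfr 6.48-fold and the cytochrome gene Cyp4a12b 6.25-fold. Between HuMgat2 HFD and WT HFD 13 of the 30 fell and 0 rose (19 fell without library 4), against 7.56% and 7.21% of all genes. Egfr fell 7.06-fold there, and the complement genes C6 and C8b fell 5.14-fold and 5.00-fold. Between WT HFD and WT chow 7 fell and 0 rose, against 6.74% and 8.37% of all genes, and 5 fell and 3 rose without library 4. Of 21 female-biased genes tested, 8 rose and 7 fell in HuMgat2 HFD against HuMgat2 chow. The increases included the transporter Slc22a27 (15.3-fold) and the cytochrome gene Cyp2b13 (14.8-fold), and the decreases the cytochrome gene Cyp3a16 (14.4-fold). Only 4 female-biased genes fell when HuMgat2 HFD library 10 or 11 or HuMgat2 chow library 16 was left out, or with library totals in place of TMM. In HuMgat2 HFD against WT HFD 7 of the 21 rose and 3 fell. Between WT HFD and WT chow 3 of the 21 rose and 7 fell, with Cyp3a16 among those that fell (4.93-fold).

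**Figure D4:**
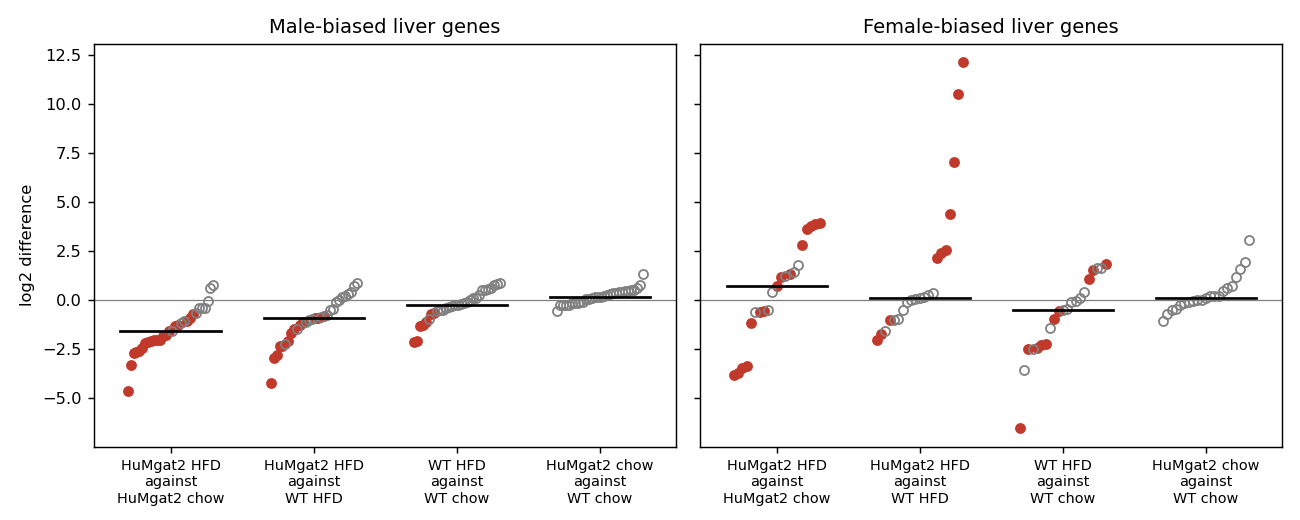
Fitted log2 differences (edgeR) of male-biased and female-biased liver genes in 4 comparisons; filled points passed an adjusted p of 0.05, open points did not, and bars are medians. Male-biased genes have a median of -1.58 in HuMgat2 HFD against HuMgat2 chow; the 2 highest female-biased points against WT HFD, Cyp2b9 and Cyp2b13, rest on near-zero counts in WT HFD.

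Other enzymes of steroid metabolism were counted next. Of 21 tested, 2 rose (9.52%) and 5 fell (23.8%) in HuMgat2 HFD against HuMgat2 chow, against 7.56% and 6.40% of all genes (median log2 -0.12, and -0.01 for all genes). Srd5a1, a steroid 5-alpha-reductase, fell 2.03-fold, at 36.1 ± 3.81 CPM in HuMgat2 HFD and 73.3 ± 1.27 CPM in HuMgat2 chow (adjusted p = 0.0409, edgeR). The aldo-keto reductase Akr1c19 fell 1.71-fold, and the retinol and steroid dehydrogenase Rdh16 rose 1.66-fold. With library totals in place of TMM 6 rose and 3 fell. Of these enzymes 0 rose without HuMgat2 chow library 13, 15 or 16, and 1 rose without any 1 HuMgat2 HFD or WT chow library or WT HFD library 2. Only 3 fell without HuMgat2 HFD library 10 or 12 or HuMgat2 chow library 13. In WT HFD against WT chow 8 fell and 1 rose, against 6.74% and 8.37% of all genes (median log2 -0.25, and 0.03 for all genes). Leaving out library 1, 2, 3, 5, 6 or 7 brought the number that rose to 0, and leaving out library 4 brought it to 3, with 8 that fell. Those that fell included Hsd17b6, which converts androgen metabolites (60.2 CPM in WT HFD and 230 CPM in WT chow), and Akr1c19 (2.51-fold). The bile acid genes, the pathway of Hsd3b7, had 2 of 17 higher (11.8%) and 4 lower (23.5%) in HuMgat2 HFD against HuMgat2 chow, with 7 lower without WT HFD library 4 and 5 higher with library totals. Cyp7b1 fell 4.27-fold, Cyp2c70 3.22-fold and Cyp27a1 1.92-fold, and Cyp46a1 rose 5.20-fold.

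Regulators of sex-biased liver expression were also counted. Of 15 genes of growth hormone signalling and its repressors, 1 rose (6.67%) and 2 fell (13.3%) in HuMgat2 HFD against HuMgat2 chow, against 7.56% and 6.40% of all genes. When single libraries were left out, 0 to 3 rose and 1 to 4 fell. Bcl6, a repressor that is higher in male liver, held 15.8 ± 2.76 CPM in HuMgat2 HFD and 113 ± 44.5 CPM in HuMgat2 chow (7.13-fold lower, adjusted p = 0.00108, edgeR). HuMgat2 chow had the highest mean, since Bcl6 held 45.8 ± 25.4 CPM in WT HFD and 44.4 ± 34.9 CPM in WT chow. Among family relatives outside the 5 genes, Nsdhl, a dehydrogenase of cholesterol synthesis, was low in WT HFD only. It averaged 14.5 CPM there, 60.0 CPM in WT chow, 73.1 CPM in HuMgat2 HFD and 61.2 CPM in HuMgat2 chow. WT HFD was 4.15-fold lower than WT chow (adjusted p = 0.000389, edgeR). HuMgat2 HFD was 5.06-fold higher than WT HFD (adjusted p = 9.32e-05, edgeR). In HuMgat2 HFD against HuMgat2 chow 0 of 3 relatives tested were called. Markers of other cells moved in HuMgat2 HFD against HuMgat2 chow: 7 of 11 stellate cell markers rose, and their summed level was 495 to 570 CPM in HuMgat2 HFD and 215 to 352 CPM in HuMgat2 chow. Of 9 hepatocyte markers 3 fell, with sums of 56400 to 72600 CPM in HuMgat2 HFD and 68300 to 93200 CPM in HuMgat2 chow. Against WT HFD, 3 of 11 stellate cell markers rose, and 2 of 9 hepatocyte and 3 of 6 lymphocyte markers fell. Of all genes 7.21% rose and 7.56% fell in that comparison. The lymphocyte markers were low, with sums of 2.93 to 3.59 CPM in HuMgat2 HFD and 4.94 to 20.8 CPM in WT HFD. Against WT HFD 2 of 14 macrophage markers also fell, but 0 or 1 without any 1 HuMgat2 HFD library and 0 without WT HFD library 4. The part of these markers in the Hsd3b values was not tested. In WT HFD the macrophage marker sum ran from 323 to 1430 CPM, against 204 to 356 CPM in WT chow, and its part in the Hsd3b values of WT HFD was not tested.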

How the data were processed

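RNA was taken from 15 mg of mouse liver (RIN above 7) and sequenced as ribosome-depleted, stranded total RNA, per the labels' protocols. The deposited values are raw read counts per gene name, made with featureCounts 2.0.1 on paired reads with the Ensembl 103 annotation of GRCm39, with no strand option and no option to count multi-mapping or multi-overlapping reads, per the file headers. Even so, Hsd3b4 and Gm10681 both held counts, equal in 14 of 16 libraries. It is therefore not known that reads shared by gene copies were left out, and their handling was not tested. STAR 2.7 and DESeq2 1.26.0 are named in the submitters' processing notes. The 64 records are 4 for each of 16 libraries, and each library was counted once. Libraries held 12.4 M to 25.8 M counts, which sets the counting error of low genes such as Hsd3b4.

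All 4 groups were fitted together with edgeR 4.0.16 (R 4.3.3) after its expression filter, which left 17318 genes, all 5 Hsd3b genes included. TMM scaling and the two-sided quasi-likelihood test were used, with Benjamini-Hochberg adjustment over those genes and a threshold of 0.05. CPM, RPKM and TPM were computed here from the counts. An SE is the log2 difference divided by the root of F. Alternatives were DESeq2 1.42.0, limma 3.58.1 (voom), other scalings and filters, and each library left out. TPM and leaving out Gm10681 were added after seeing the data. The script was tested on simulated counts.

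The members and gene lists were chosen with earlier results of these data known. Named list genes are up to 4 per list and comparison with the largest called change and no overlap. Neighbours within 250 kb and the 5 nearest profiles (members with an SD of at least 1 log2 unit, genes of at least 1 CPM, prior count 2) were named by rule. Promoters are RefSeq sequences of GRCm38.p6, and word sharing and coding identity use the GENCODE annotation of GRCm38. No coordinate was carried between builds. 1 neighbouring gene is not reported here.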

Additional observations from a re-analysis of the deposited data

Results flagged for a closer look

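In the groups of 4 libraries checked, 36 in all, 3 held a library whose gap to the nearest other, as a share of the range of the group, passed Dixon's 95% critical value. Chance flags about 1 in 20 such groups. Hsd3b3 was 109.2 CPM in HuMgat2 HFD library 9, against 130.4 to 134.3 CPM in the others of that group. Hsd3b4 and its copy Gm10681 were each 0.0814 CPM in library 9, which is 2 counts, against 0 in the other 3. The counts of these 2 names cannot be told apart, so their flags are not separate. Where the other 3 libraries are 0, any nonzero count makes the gap equal the range. The rate of 1 in 20 does not apply to such groups.

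For 2 of the named genes the diet went opposite ways in the genotypes with no overlap of the groups, and the difference between genotypes was not tested. C6 had a log2 difference of -1.855 in HuMgat2 mice (HFD against chow) and 0.564 in WT mice, where it did not pass the threshold (adjusted p = 0.0915, edgeR). Cyp2c70 had -1.689 in HuMgat2 mice and 1.191 in WT mice.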

How the results depend on the processing

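No paired analysis was possible because library numbers 1 to 16 are not shared between groups. The Hsd3b5 log2 difference stayed between -8.97 and -8.41 (HuMgat2 HFD against HuMgat2 chow, -8.69 as reported) and between -8.48 and -7.86 (against WT HFD, -8.10) in the refits. As ratios of mean TPM these were -8.37 and -7.72. The count of called members in WT HFD against WT chow was 0 as reported, 1 with limma voom (Hsd3b3), and 0 to 2 when single libraries were left out, with 2 without WT HFD library 4. It was 0 in HuMgat2 chow against WT chow under every alternative. The sign of differences near 0 changed. Hsd3b4 in WT HFD against WT chow ranged from -0.738 to 0.061 with single libraries left out, 0.061 being without WT HFD library 4. In HuMgat2 chow against WT chow, Hsd3b5 was -0.114 with library totals, -0.009 with voom and -0.098 to 0.369 with single libraries left out. In the same settings the values of HuMgat2 chow against WT chow: Hsd3b7 log2 difference were -0.097, -0.017 and -0.067 to 0.132. Library totals moved the median of all genes to -0.146 in that comparison and to 0.228 in HuMgat2 HFD against HuMgat2 chow, where Hsd3b2 was -0.52 and Hsd3b3 -0.26. The cause was not tested. The number of all genes called was 2617 in WT HFD against WT chow (1452 to 3944), 88 in HuMgat2 chow against WT chow (53 to 214), 2418 in HuMgat2 HFD against HuMgat2 chow (1627 to 3733) and 2558 in HuMgat2 HFD against WT HFD (1585 to 4323). Depth limits Hsd3b4, at most 113 counts per library, more than the other members.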
